A study of Equus caballus with 17 samples.

Results

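miR-146a and miR-146b-5p are the mature products of 2 separate genes and belong to the same miRNA family. Both were found by name in the deposited miRNA table (eca-miR-146a and eca-miR-146b-5p, where eca marks the horse), with 1 entry each, as 2 of 274 annotated mature miRNAs. Small RNA was sequenced in 17 horse libraries from 5 groups, called stages below. Testis gave the stages that the labels call Infant (3 libraries), Pre-puber (3), Puber (3) and Adult (4), and Sperm gave 4. All samples were total RNA taken up in TRIzol, and sperm RNA was treated with DNase for less time than testis RNA, so that this step and the cell source cannot be told apart. The labels name no treatment, genotype, breed or age beyond the stage.

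miR-146 is best known as a brake on innate immune signalling. NF-kappaB, a transcription factor switched on by Toll-like and interleukin-1 receptors, induces its transcription, and the mature miRNA represses the adaptors TRAF6 and IRAK1 in the same pathway. In testis and sperm, members of the family have been studied in spermatogonia and in cells of the immune system that reside in the organ. The mature miR-146a and miR-146b-5p carry the same seed, the stretch that recognises target transcripts, and differ only towards the 3′ end. Reads trimmed short of that end cannot be told apart, and how the authors' counting assigned them is not given in the sources used here, so the split between the 2 miRNAs is uncertain in that respect.

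In the RefSeq annotation of the horse assembly TB-T2T, MIR146A lies between the long noncoding RNA LOC102148137 and PTTG1, the gene of securin. The next miRNA gene along is MIR9155, whose miR-9155 had 0 counts in all 17 libraries, which allows up to 3 counts in a library. MIR146B lies within the span of C1H10orf95, and the genes CUEDC2, FBXL15, PSD and NFKB2 follow along the chromosome in that order. NFKB2 encodes a subunit of NF-kappaB.

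Libraries held 1.94 to 17.9 M (mega) counts, of which 1.48 to 13.1 M fell on annotated miRNAs. Depth was lower in Adult and Sperm than in Infant. Both miRNAs were well covered, with 2030 to 42428 counts of miR-146a and 1926 to 37808 counts of miR-146b-5p in a library. Both passed the filter on low counts, with 184 miRNAs tested in testis and 162 in the comparison of Sperm with Adult. Whether the libraries come from separate animals is not said in the labels. The number in the title is the same for Infant 31a and 31b, and again for Pre-puber 3a and 3b. The p-values therefore measure the spread between these libraries, which may be technical. Infant 30 stood apart from Infant 31a and 31b in miR-146b-5p, and tests whose call or direction turns on it are given with and without it.

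In all 5 stages together, miR-146b-5p was far higher in Sperm than in any testis stage, whereas miR-146a was about as high in Sperm as in Infant testis. These levels are in CPM, which sets each count against the scaled total of annotated counts in its library, on a common scale for the 17 libraries. miR-146a averaged 4503 ± 2078 CPM in Infant (SD, n = 3), 4468 ± 2975 in Sperm (n = 4) and 2671 ± 545 in Pre-puber (n = 3). It was lowest in Puber, at 1586 ± 439 CPM (n = 3), and Adult, at 1580 ± 699 (n = 4). Of the neighbours in this order, only Pre-puber and Puber had ranges that did not overlap. miR-146b-5p averaged 16498 ± 3979 CPM in Sperm (SD, n = 4), 1345 ± 333 in Adult (n = 4), 1165 ± 1474 in Infant (n = 3), 978 ± 834 in Puber (n = 3) and 620 ± 73.3 in Pre-puber (n = 3). Sperm did not overlap Adult, and each of the other neighbours in the order overlapped the next. The place of Infant rests on Infant 30, since 31a and 31b stood at 299.9 and 328 CPM, below every other library.

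**Figure D1:**
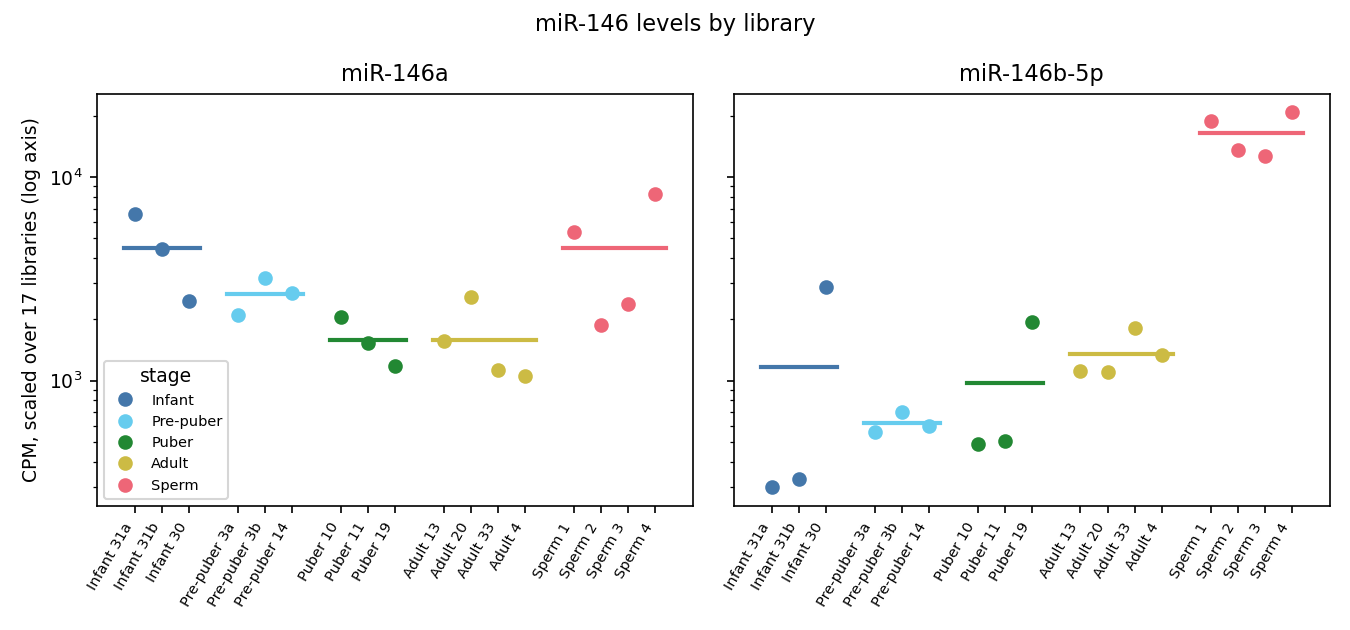
Level of miR-146a (left) and miR-146b-5p (right) in each of the 17 libraries, in CPM on the scale common to all libraries (log axis); points are libraries and horizontal lines are stage means. All 4 Sperm libraries lie above every testis library for miR-146b-5p, and for miR-146a the Sperm libraries spread over the range of the testis libraries and above it.

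miR-146a was the more abundant of the pair in Infant and Pre-puber testis, except in Infant 30, and was lower in Adult than in Infant. On the scale of the 13 testis libraries, it stood at 7641, 4670 and 2615 CPM in Infant 31a, 31b and 30. The Pre-puber libraries 3a, 3b and 14 held 2295, 3468 and 3419 CPM. The Puber libraries 10, 11 and 19 held 2129, 1666 and 1282 CPM. Every Puber library was thus below every Pre-puber library. In Adult 13, 20, 33 and 4, miR-146a stood at 1493, 3117, 1190 and 1206 CPM. Adult 20 was the highest adult library and exceeded Infant 30, so Adult and Infant overlapped.

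From Infant, at 4975 ± 2527 CPM (SD, n = 3), to Adult, at 1751 ± 921 (n = 4), miR-146a fell by 1.51 ± 0.42 on the log2 scale (SE; 2.84-fold lower, adjusted p = 0.00984, edgeR's quasi-likelihood test with Benjamini-Hochberg adjustment). In this comparison 51.6% of the tested miRNAs passed the threshold of an adjusted p under 0.05, and 25.5% did so with a fall. The median of all tested miRNAs was -0.14. The call was lost without Infant 31a (log2 fold change -1.05, adjusted p = 0.0671 by edgeR) and with no scaling beyond the total (-0.59, adjusted p = 0.113), where the median of all miRNAs moved to 0.82. Relative to that median the fall was -1.36 with the main scaling and -1.41 without scaling. A change of scaling shifts all miRNAs by nearly the same amount, so these values had to be close. They do not show that the call holds without scaling. Among the called miRNAs, the split moved from 48 higher and 47 lower to 84 and 21 without scaling, and to 40 and 65 with upper quartile scaling.

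The single steps between neighbouring stages did not pass the threshold. From Infant to Pre-puber, 23.9% of miRNAs were called (29 higher and 15 lower, or 36 and 5 with no scaling), and miR-146a was not among them, at -0.70 ± 0.45 (log2, SE; adjusted p = 0.295, edgeR). This value was -0.24 without Infant 31a and -0.17 with no scaling. From Pre-puber to Puber it was -0.85 ± 0.45 (adjusted p = 0.326, edgeR), in a comparison where 1.09% of miRNAs were called and 26.6% had no overlap between the groups. The calls in that step were 2 higher and 0 lower, against 8 and 1 with no scaling and 6 and 1 with upper quartile scaling. The 95% interval of miR-146a in this step, approximate here and below, ran from -1.74 to 0.04. From Puber to Adult it was 0.05 ± 0.42 (adjusted p = 0.970, edgeR), with an interval from -0.78 to 0.88, and 0% of miRNAs were called. At an unadjusted p under 0.05 there were 34, and DESeq2 called 10 and limma-voom 0. Over the 4 testis stages together miR-146a passed the threshold (F = 6.01, adjusted p = 0.0219, edgeR), as did 47.8% of the tested miRNAs. That call was lost without Infant 31a (adjusted p = 0.111) or Infant 31b (adjusted p = 0.0547), both by edgeR. It was also lost with no scaling (F = 3.15, adjusted p = 0.105) and with libraries of a shared title number summed (F = 3.49, adjusted p = 0.104), again by edgeR.

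miR-146b-5p in testis varied several-fold between libraries of the same stage in Infant and Puber. It stood at 347 and 344 CPM in Infant 31a and 31b, and at 3059 in Infant 30. The Pre-puber libraries 3a, 3b and 14 were close together, at 609, 761 and 758 CPM. In Puber it stood at 505 and 551 CPM in libraries 10 and 11, and at 2113 in library 19. A single library was thus far above the others of its stage, Infant 30 and Puber 19. Adult 13, 20, 33 and 4 held 1065, 1342, 1918 and 1531 CPM.

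None of the comparisons of testis stages that were run called miR-146b-5p. Adult against Pre-puber and Puber against Infant were not among them. The log2 fold change was -0.82 ± 0.77 (SE) from Infant to Pre-puber (adjusted p = 0.482), 0.57 ± 0.77 from Pre-puber to Puber (adjusted p = 0.747) and 0.47 ± 0.72 from Puber to Adult (adjusted p = 0.756), all by edgeR. From Infant to Adult it was 0.23 ± 0.72 (adjusted p = 0.818, edgeR), with an interval from -1.18 to 1.64. The test over the 4 stages gave F = 0.709 (adjusted p = 0.600, edgeR). Infant 30 weighed heavily on these values. Without it, miR-146b-5p was higher in Adult than in Infant (log2 fold change 2.07, adjusted p = 0.00995) and passed the test over the stages (adjusted p = 0.0387), both by edgeR. The Infant libraries left in that fit are 31a and 31b, which share a title number. Without Infant 30 the step from Infant to Pre-puber turned to 1.02, and without Puber 19 the step from Pre-puber to Puber turned to -0.38, neither of them called.

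**Figure D2:**
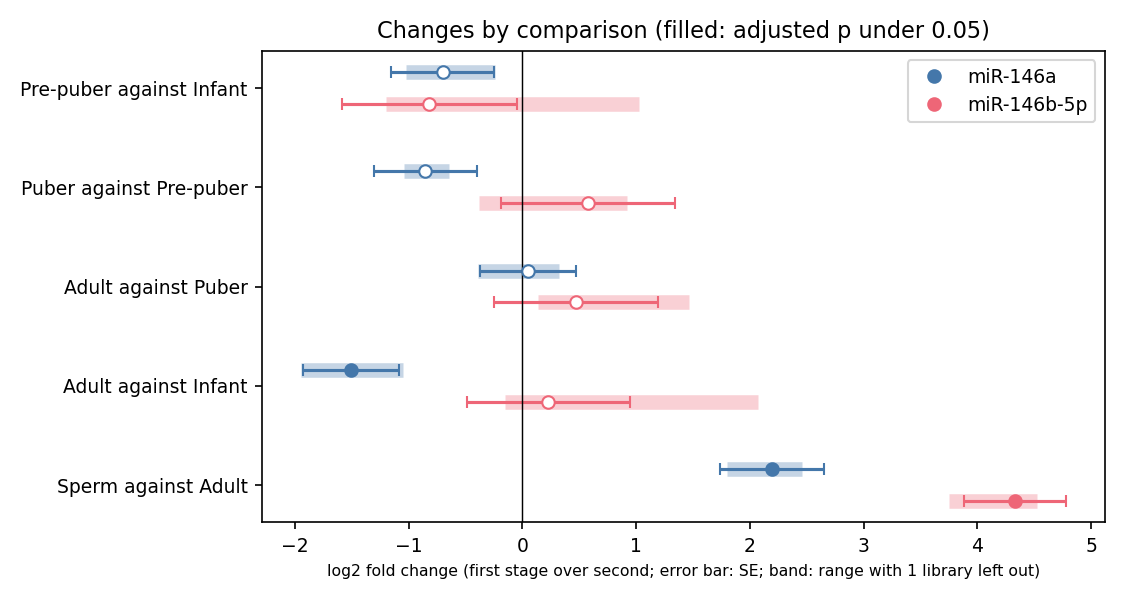
Log2 fold change of miR-146a and miR-146b-5p in the 5 comparisons, the stage named before "against" over the stage after it; points are the fitted values, error bars their SE, and pale bands the range when each library in turn is left out. Filled points passed the threshold: miR-146a in Adult against Infant, and both miRNAs in Sperm against Adult, whereas the bands of miR-146b-5p cross 0 in 3 comparisons of testis stages.

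The spread of miR-146b-5p within stages was large among the miRNAs tested. Its SD within testis stages, pooled on the log2 scale of CPM, was 1.04, the 25th largest of 184, whereas that of miR-146a was 0.58 and the median of all miRNAs was 0.56. Infant 30 exceeded the mean of the other Infant libraries by 3.15 log2 units (8.85-fold) in miR-146b-5p, the 3rd highest difference of the 184. Higher still were miR-486-5p, a miRNA of red blood cells, and miR-224, which reached 23.8 CPM at most in the 3 libraries. miR-451, the other red blood cell miRNA matched, came next. miR-146a differed the other way, by -1.19 log2 units. Puber 19 exceeded Puber 10 and 11 by 2.00 log2 units (4.00-fold) in miR-146b-5p, the 5th highest difference of that kind, and was -0.56 in miR-146a.

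Red blood cell miRNAs were high in Infant 30, like miR-146b-5p, and not in Puber 19. miR-451 and miR-486-5p, 2 of the 3 listed red blood cell miRNAs matched by name, summed to 356 and 385 CPM in Infant 31a and 31b and to 5670 in Infant 30. They summed to 4217 CPM in Adult 33 and to 748, 813 and 928 in Adult 13, 20 and 4. Adult 33 had the most miR-146b-5p of the adult libraries on the testis scale, whereas on the scale of Adult and Sperm it was Adult 4. In Puber 19 they stood at 586 CPM, against 298 and 841 in Puber 10 and 11. The Pre-puber libraries held 545, 174 and 1476 CPM. Of the 5 leukocyte miRNAs listed, 3 were matched, miR-142-5p, miR-150 and miR-155, none of them at 0. They summed to 3955, 4020 and 5116 CPM in Infant 31a, 31b and 30, and to 1479, 1191 and 2120 in Puber 10, 11 and 19. In Pre-puber they ranged from 2831 to 3713 CPM and in Adult from 1144 to 1342. The leukocyte sum was highest in the library with most miR-146b-5p in Infant and Puber, and lowest in that library in Pre-puber, 3b. That lead of 3b was narrow, at 761 CPM of miR-146b-5p against 758 in Pre-puber 14. As a share of annotated counts 3a led, at 0.0688% against 0.0676% in 3b. In Adult the place of the leukocyte sum depended on the scale, since Adult 13 led the sum on the scale of all 17 libraries, at 1305 CPM against 1272 in Adult 33. Most of the sum was miR-155, at 4279 CPM in Infant 30 and 1693 in Puber 19, a miRNA not specific to leukocytes. miR-150 was lowest in Infant 30, at 201 CPM against 420.2 and 510.3 in 31a and 31b, and miR-142-5p in Puber 19, at 271 CPM, lay below the 331 of Puber 10. The part of blood cells in these levels was not tested, and in bulk tissue fewer cells of a type and less RNA per cell cannot be told apart.

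**Figure D3:**
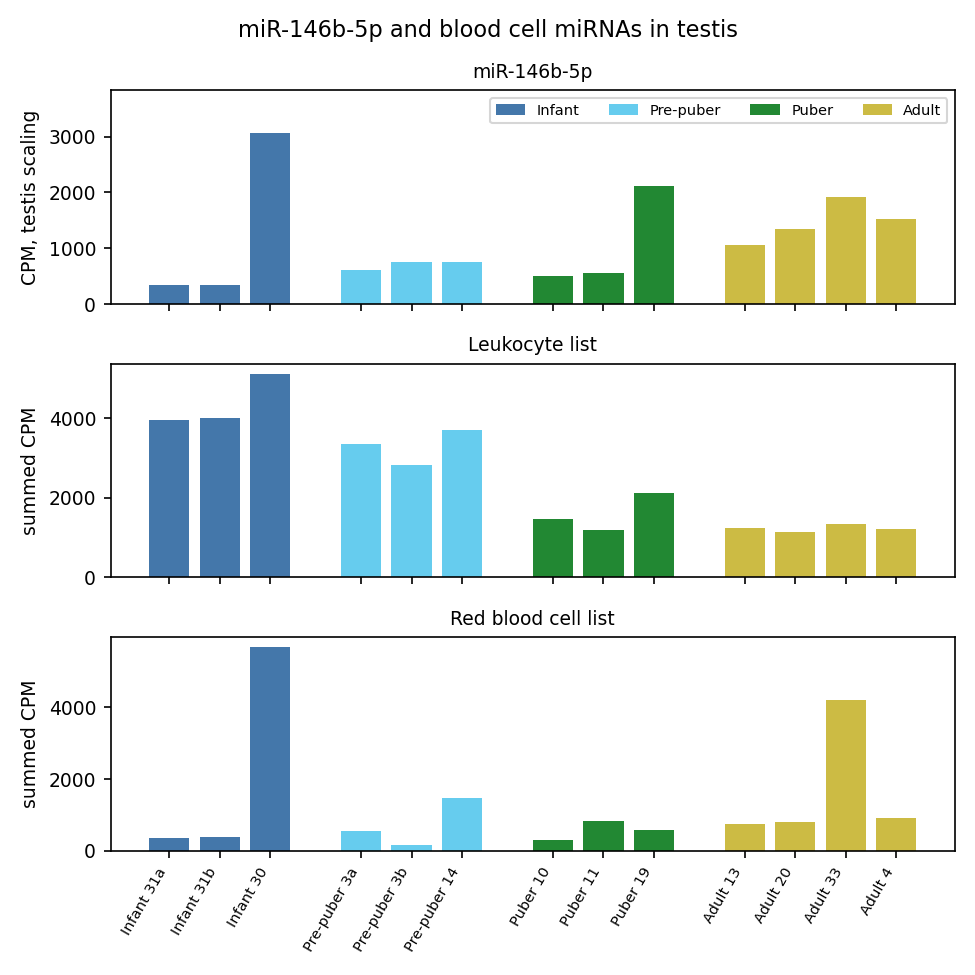
miR-146b-5p (top, CPM on the testis scale) with the summed CPM of the leukocyte list (middle) and of the red blood cell list (bottom) in the 13 testis libraries, coloured by stage. Infant 30 is the highest of its stage in all 3 panels, at 3059, 5116 and 5670 CPM. In the leukocyte panel it is less far above Infant 31a and 31b, at 3955 and 4020 CPM. Puber 19 is high for miR-146b-5p at 2113 CPM, with a red blood cell sum of 586. Its leukocyte sum, 2120 CPM, is the highest in Puber.

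In Sperm, miR-146b-5p was among the most abundant miRNAs. On the scale of the 8 Adult and Sperm libraries it stood at 822, 904, 1302 and 1321 CPM in Adult 13, 20, 33 and 4. It reached 27636, 21104, 13386 and 25549 CPM in Sperm 1, 2, 3 and 4. Its rank among annotated miRNAs was 15, 15, 19 and 12 in those Sperm libraries, and between 42 and 52 in Adult. The lowest Sperm library was thus well above the highest Adult library. Before scaling, it took 0.733% to 1.67% of annotated counts in Sperm and 0.128% to 0.300% in Adult.

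From Adult, at 1087 ± 261 CPM (SD, n = 4), to Sperm, at 21918 ± 6307 (n = 4), miR-146b-5p rose by 4.33 ± 0.45 on the log2 scale (SE; 20.2-fold, adjusted p = 7.49e-13, edgeR). This was the 11th highest rise of the 162 miRNAs tested. The comparison called 81.5% of miRNAs in either direction and 42% as higher in Sperm, and for 74.7% no Sperm library overlapped the Adult range, so a call in itself was common. The rise stayed between 2.65 and 4.31 in the 7 other analyses and between 3.75 and 4.53 when a library was left out, called in each of them.

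miR-146a rose less and less evenly. It stood at 1152, 2101, 808 and 1040 CPM in Adult 13, 20, 33 and 4, and at 7817, 2895, 2501 and 10180 in Sperm 1, 2, 3 and 4. Sperm 1 and 4 were several-fold above Sperm 2 and 3, and all 4 were above the highest Adult library, Adult 20. From 1275 ± 569 CPM in Adult to 5848 ± 3767 in Sperm (SD, n = 4 each), it rose by 2.20 ± 0.46 on the log2 scale (SE; 4.59-fold, adjusted p = 1.98e-05, edgeR).

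The rise of miR-146a depended on how libraries were scaled. As a share of annotated counts it overlapped between the groups, at 0.137% to 0.493% in Sperm and 0.168% to 0.298% in Adult. With no scaling beyond the total, the log2 fold change was 0.57 (adjusted p = 0.257, edgeR), and the median of all miRNAs moved from 0.06 to -1.61. Calls then split into 36 higher and 86 lower, in place of 68 and 64. Relative to the median of all tested miRNAs, miR-146a was 2.14 above with the main scaling, 2.18 without scaling and 2.23 with upper quartile scaling. The same difference was 4.28, 4.26 and 4.32 for miR-146b-5p. A change of scaling shifts all miRNAs by nearly the same amount, so these values had to be close and do not test the rise. With all entries of the deposited table fitted, the difference from their median was 1.18 for miR-146a and 3.38 for miR-146b-5p.

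miR-146a made up most of the pair in most young testis libraries and the smaller part in every Sperm library. miR-146a made up 95.7% and 93.1% of the pair's counts in Infant 31a and 31b and 46.1% in Infant 30. Its share averaged 81.0 ± 1.67% in Pre-puber (SD, n = 3). It was 64.6 ± 23.4% in Puber (n = 3) and 52.7 ± 14.3% in Adult (n = 4). In Sperm 1, 2, 3 and 4 it was 22.0%, 12.1%, 15.7% and 28.5%, below every testis library. Per count of miR-146a there were 2.51 to 7.29 counts of miR-146b-5p in Sperm and 0.431 to 1.61 in Adult. This ratio sets 2 miRNAs of like length against each other within a library, and scaling does not enter it, although ligation and amplification can favour either of them.

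The log2 ratio of miR-146a to miR-146b-5p was 0.17 ± 0.86 in Adult and -2.11 ± 0.67 in Sperm (SD, n = 4 each), a difference of -2.28 without overlap. The exact two-sided permutation p was 0.0286, the smallest that 4 against 4 libraries allow, and 0.143 after Benjamini-Hochberg adjustment over the 5 comparisons, so it did not pass. The ratio was 2.67 ± 2.53 in Infant, 2.09 ± 0.15 in Pre-puber and 0.98 ± 1.50 in Puber (SD, n = 3 each). None of the testis differences passed: Pre-puber against Infant was -0.57 (exact permutation p = 0.8), Puber against Pre-puber -1.11 (p = 0.2), Adult against Puber -0.82 (p = 0.4) and Adult against Infant -2.50 (p = 0.171). With 3 libraries against 3, the smallest p this test allows is 0.1. These differences moved with single libraries. Without Infant 30, Adult against Infant was -3.94 and Pre-puber against Infant -2.02, and without Infant 31a they were -1.60 and 0.32. Without Infant 31b, Pre-puber against Infant was -0.03. Without Puber 19, Puber against Pre-puber was -0.26 and Adult against Puber -1.67. Adult against Puber was -0.27 without Puber 10, -0.51 without Puber 11 and -0.53 without Adult 33.

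**Figure D4:**
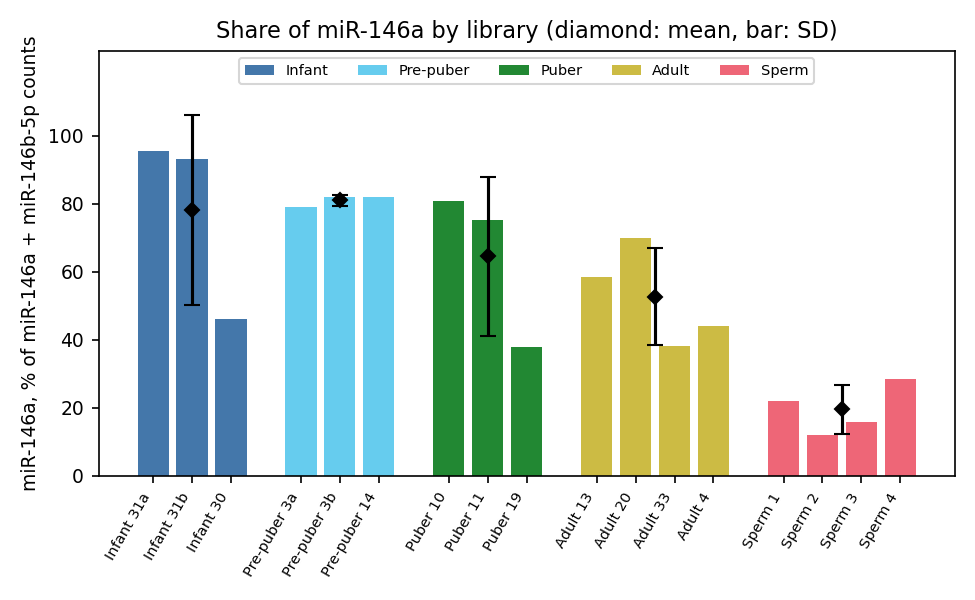
Share of miR-146a in the summed counts of miR-146a and miR-146b-5p, in %, in each library (bars), with the stage mean (diamond) and SD (error bar). Shares in Sperm, from 12.1% to 28.5%, are below those of all testis libraries, and Infant 30, at 46.1%, and Puber 19, at 37.8%, are below the other libraries of their stages.

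Markers of other cells were read beside the Sperm values. The comparison called 68 miRNAs higher and 64 lower of the 162 tested, so a call in either direction was common. The 3 matched miRNAs of stroma and smooth muscle were miR-145, miR-199a-5p and miR-199b-5p. They summed to 65.8 to 152 CPM in Sperm and to 10092 to 14698 in Adult, and all 3 fell. miR-126-5p of endothelium stood at 38.2 to 52.9 CPM in Sperm and at 215 to 471 in Adult. The germ cell miRNAs miR-34b-5p, miR-34c and miR-449a, which mark meiotic and later stages, summed to 105216 to 359600 CPM in Sperm and to 28795 to 38893 in Adult.

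Blood markers were mixed in Sperm. Of the leukocyte miRNAs, miR-142-5p stood at 183 ± 91.9 CPM in Adult and 185 ± 90.6 in Sperm, and miR-150 at 61.5 ± 16.7 and 32.8 ± 29.3 (SD, n = 4 each). Neither was called (log2 fold change 0.02, adjusted p = 0.976, and -0.92, adjusted p = 0.106, edgeR). miR-155, which is induced in many activated immune cells and is not specific to leukocytes, was the third and rose. The leukocyte sum was 771 to 1054 CPM in Adult and 5014 to 6636 in Sperm for this reason. The red blood cell sum was 548 to 2862 CPM in Adult and 1312 to 3598 in Sperm. There miR-451 rose by 2.69 ± 0.56 (log2, SE; adjusted p = 1.97e-05, edgeR), and miR-486-5p was at 0.44 ± 0.48 (adjusted p = 0.382). The part of blood cells in the Sperm levels was not tested.

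Other miRNAs induced with miR-146 by inflammatory signalling were taken from a list of 6, of which 4 were matched by name. In Sperm against Adult, 3 of the 4 rose, where 42% of all miRNAs tested were called higher. The median log2 fold change of the 4 was 2.72, against 0.06 for all miRNAs tested. Among the 3, miR-212 passed the filter on low counts only through Sperm. Its rise was thus bound up with its being tested. The count and the median above both include it, so neither is read as support. Of the other members tested, miR-155 and miR-9a rose, by 3.07 and 2.37 on the log2 scale, and miR-21 was not called. miR-155 went from 679 ± 165 CPM in Adult to 5693 ± 894 in Sperm (SD, n = 4 each), a rise of 3.07 ± 0.44 (log2, SE; adjusted p = 9.01e-09, edgeR). miR-9a, a miRNA that targets NFKB1 transcripts, rose from 307 ± 80.6 to 1585 ± 427 CPM. miR-212, which shares a precursor transcript with miR-132, went from 2.21 ± 0.60 to 203 ± 105 CPM, with 6 to 33 counts in an Adult library. miR-21, abundant in most tissues, was at 0.45 and was not called (adjusted p = 0.277, edgeR).

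From Infant to Adult, 1 of the 4 rose and 1 fell, against 48 higher and 47 lower of the 184 miRNAs tested (51.6% called), so the list's share of calls was near that of all miRNAs. miR-155 stood at 3560 ± 624 CPM in Infant (SD, n = 3) and 900 ± 114 in Adult (n = 4), and fell by 1.98 ± 0.29 on the log2 scale (SE; adjusted p = 0.000161, edgeR). miR-9a rose, from 94.3 ± 9.29 to 418 ± 141 CPM, and miR-21 and miR-212 were not called. Of the 3 leukocyte miRNAs, 2 fell over the same interval, miR-155, which is on both lists, and miR-150 (-2.16 ± 0.38, log2 and SE, adjusted p = 0.000409, edgeR). The third, miR-142-5p, was at -0.76 (adjusted p = 0.180, edgeR). Of all tested miRNAs, 25.5% fell in this comparison. Within Infant the leukocyte sum was highest, at 5116 CPM, in Infant 30, where miR-146a was lowest. Its members differed there: miR-155 and miR-142-5p were highest in Infant 30. miR-150 was lowest there, at 201 CPM against 420 and 510 in Infant 31a and 31b. Stroma and germ cell markers changed over the same interval. The stroma and smooth muscle sum went from 41685 ± 9441 CPM in Infant (SD, n = 3) to 16648 ± 1675 in Adult (n = 4), where miR-199a-5p (-1.67) and miR-199b-5p (-2.13) fell and miR-145 (0.53) was not called. The sum of the germ cell miRNAs went from 33.4 ± 17.8 to 44669 ± 4426 CPM. The part of these cell types in the fall of miR-146a was not tested.

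miRNAs reported in undifferentiated spermatogonia, the germ cells that include the stem cells, were matched for 4 of 6 names. From Infant to Adult, 2 of them rose and 1 fell, where 51.6% of all tested miRNAs were called and 25.5% fell. miR-20a and miR-106a, members of the proliferation-linked miR-17 family, were at 1.92 and 3.49 on the log2 scale, and miR-135a fell by 4.23. In Sperm against Adult, 2 of the 4 rose, miR-20a at 1.51 and miR-135a at 5.07, a share near the 42% of all miRNAs called higher. miR-21, the fourth, was not called in either.

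The 5 annotated miRNAs closest to each member were taken by the root mean square difference of their log2 profiles over the 17 libraries, each centred on its own mean. Those of miR-146a were let-7d (0.69), miR-155 (0.75), miR-151-5p (0.79), miR-181a (0.83) and miR-1388 (0.83), against a median of 2.07 over the 183 miRNAs compared. let-7d shares the shape of miR-146a, with means of 3025 CPM in Infant, 883 in Adult and 2750 in Sperm. Those of miR-146b-5p were miR-18a (0.83), miR-16 (0.90), miR-30d (0.96), miR-93 (0.98) and miR-340-5p (0.99), against a median of 2.81. miR-16 stood at 1407 CPM in Infant, 2171 in Adult and 21839 in Sperm. The pair itself differed by 2.04, which put miR-146b-5p in position 91 from miR-146a and miR-146a in position 56 from miR-146b-5p. The libraries are shared between all of these profiles, and Sperm weighs heavily in them, so these values are a description.

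Other entries whose names begin with miR-146 were miR-1468 and miR-1461, which share only the leading digits of the number. miR-1468 averaged 67.2 ± 17.3 CPM in Infant, 139 ± 1.42 in Pre-puber, 119 ± 57.5 in Puber (SD, n = 3 each) and 104 ± 31.1 in Adult (n = 4) on the testis scale. It was lower in Sperm than in Adult, at 24.2 ± 29.2 against 77.8 ± 22.6 CPM on their common scale (SD, n = 4 each; adjusted p = 0.0113, edgeR), opposite to miR-146a and miR-146b-5p. miR-1461 had 0 counts in all 17 libraries, which allows up to 3 counts in a library.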

How the data were processed

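The authors deposited whole read counts per miRNA, with RPM values beside them. The deposited RPM equalled the count over the column total within 0.005. Reads were trimmed with Trimmomatic and the build was EquCab3.0, per the submitters' processing notes. Aligner and counter are not given in the sources used here. Column names were paired with samples through the number in the title. An Adult and a Sperm title both have the number 4, and their columns were separated by prefix: se also precedes numbers 1 and 2, which only sperm titles have.

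Of 1763 entries, the 302 annotated ones were used, keeping the entry with the highest total for each of 274 mature miRNAs. Counts were tested with edgeR 4.0.16 (R 4.3.3; quasi-likelihood, filterByExpr by group, TMM, Benjamini-Hochberg adjusted p under 0.05), in a fit of the 13 testis libraries and another of the 8 Adult and Sperm libraries. Each fit has its own scaling, so an Adult level is not the same in both. The script was tested on simulated data. SEs come from the F statistic and are approximate. The ratio used log2 of counts plus 0.5 and exact two-sided permutation tests (scipy 1.17.1). Spread within stages used log2 of CPM plus 0.5. Alternatives were DESeq2 1.42.0, limma-voom 3.58.1, other scalings, no filter, all entries, summed libraries, other fits and leaving out each library.

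Named miRNAs are both members, entries beginning with their number, the 5 closest profiles of each, and at most 3 abundant members of each of 8 lists. All matched members of the inflammatory and spermatogonia lists are named, beyond this limit. That choice was made, and miR-224 and the miRNAs that led Infant 30 were named, after their values were seen, as was miR-9155. The list for gonadal soma (miR-202) had no match by name. The members and lists were chosen with earlier results of these data known.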

Additional observations from a re-analysis of the deposited data

Results flagged for a closer look

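Among the 4 Adult libraries, Adult 20 stood apart in miR-146a on the testis scale, at 3117 CPM against 1190 to 1493 in the others. Its gap to the nearest library was 0.843 of the group's range, above Dixon's 95% critical value for 4 samples, which chance passes in about 1 in 20 groups. On the scale of Adult and Sperm and on that of all 17 libraries it did not pass. The rule was applied to both miRNAs on each scale and to their ratio, so a single pass can arise by chance.

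The deposited table has a column of totals per miRNA that exceeds the sum of the 17 libraries, by 17127 counts for miR-146a and by 8682 for miR-146b-5p. These counts belong to no library analysed here, and where they come from is not given in the sources used here.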

How the results depend on the processing

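Of 238 recomputed values, 211 kept their direction and their side of the threshold; the cause of the others was not tested unless stated. For miR-146a, the test over the testis stages was lost with no scaling (F = 3.15) and with libraries of a shared title number summed (F = 3.49), and ranged from 3.32 to 11.2 with a library left out. Adult against Infant was lost with no scaling (log2 fold change -0.59) and ranged from -1.95 to -1.05 with a library left out. Puber against Pre-puber was called with all entries fitted (-2.68). Adult against Puber, near 0 throughout, changed sign with limma-voom (-0.095), upper quartile scaling (-0.017), all entries (-0.29) and all 17 libraries in one fit (-0.0063), and ranged from -0.39 to 0.32 with a library left out. Sperm against Adult was lost with no scaling (0.57) and all entries (0.96), and ranged from 1.80 to 2.46. For miR-146b-5p, the test over stages ranged from F = 0.445 to 5.07, Pre-puber against Infant from -1.20 to 1.02, Puber against Pre-puber from -0.38 to 0.92 (-1.40 with all entries) and Adult against Infant from -0.15 to 2.07. The last changed sign with upper quartile scaling (-0.054), all entries (-1.43) and summed libraries (-0.15). The ratio in Pre-puber against Infant changed sign with summed libraries (0.17) and ranged from -2.02 to 0.32. Other ratios ranged from -1.65 to -0.26 (Puber against Pre-puber), -1.67 to -0.27 (Adult against Puber) and -3.94 to -1.60 (Adult against Infant). The fit of all entries includes predicted hairpins, and calls rose to 855 of 916 over the testis stages, 606 in Pre-puber against Infant, 198 in Puber against Pre-puber, 832 in Adult against Infant and 507 of 783 in Sperm against Adult. In Puber against Pre-puber, where the main count was 2, DESeq2 called 16, limma-voom 19, no scaling 9, upper quartile scaling and all 17 libraries 7 each, no filter 3, and summed libraries or the groups alone 0, with 30 without Pre-puber 14. Pre-puber against Infant gave 29 with summed libraries and 26 with the groups alone, against 44, and Adult against Puber, with 0 in the main analysis, gave 19 with the groups alone, 10 with DESeq2, 1 with no scaling, and 7 each without Puber 19 or Adult 20. Summed libraries and the groups alone give no separate value for Sperm against Adult. No paired analysis was possible because the groups share only the number 4, held by 1 Adult and 1 Sperm library.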
